A study of Mus musculus with 10 samples.

Results

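The ryanodine receptor release complex is the protein assembly through which the sarcoplasmic reticulum of a heart muscle cell lets out calcium. Its 10 genes were taken by symbol from the deposited gene table of 54532 genes: Ryr2, Casq2, Casq1, Hrc, Trdn, Asph, Jph2, Jph1, Fkbp1b and Itpr1. Each symbol had 1 row, and all 10 passed the filter on low counts with which 17752 genes were tested. RNA came from mouse left atrium where the pulmonary veins join it, dissected with a short stretch of vein. Ctrl (4 mice) was R26creERT2/creERT2; Tbx5+/+, and CKO (6 mice) was R26creERT2/creERT2; Tbx5flox/flox. All 10 mice carried the tamoxifen-inducible Cre from the Rosa26 locus, which is active in most cell types and not in heart muscle alone, and all received tamoxifen on 3 consecutive days at 6 weeks of age. Tissue was taken 1 week after treatment, at 7 weeks of age. The comparison asks how the loss of Tbx5, a T-box transcription factor of the atrium, changed the RNA of this complex in the pulmonary vein region.

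In a heart muscle cell an incoming electrical impulse opens L-type calcium channels, and the calcium that enters opens the ryanodine receptor Ryr2 in the facing membrane of the sarcoplasmic reticulum. Inside the reticulum calsequestrin stores calcium and, with the anchor proteins triadin and junctin, tunes how readily the receptor opens. Junctophilins hold the cell membrane and the reticulum together, and inherited defects of several of these proteins give arrhythmias through leaking calcium.

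Library totals ran from 8602794 to 10040808 counts. Tbx5 itself, as a check of the labels, was between 89.6 and 159 CPM in Ctrl and between 167 and 425 CPM in CKO, so its total RNA was not lower in CKO. Coverage of exon 3, which general knowledge and not the labels places between the loxP sites, relative to the median exon was 0.903 to 1.7 in Ctrl and 0.175 to 0.618 in CKO. The tissue carried heart muscle RNA at high level: the summed CPM of 12 cardiomyocyte markers was 69600 to 111000 in Ctrl and 76000 to 137000 in CKO, with Ctrl 3 and CKO 5 lowest in their groups. Airway markers were abundant in Ctrl 3 (summed 1760 CPM) and CKO 4 (2810 CPM) and at most 90.4 CPM in the other libraries. The summed endothelial markers did not overlap between the groups, at 993 to 1630 CPM in Ctrl and 1880 to 2580 CPM in CKO, and 1 of 6, Vwf, passed the threshold. Of 7 tested nerve markers 1, Dbh, was lower (17.8 ± 4.66 CPM in Ctrl and 4.44 ± 1.8 in CKO) and the other 6 had negative values that did not pass, as did all 5 adipocyte markers. Of 9 smooth muscle markers 1, Des, which heart muscle also expresses, was higher, and 8 did not pass. Of 8 fibroblast markers 0 passed, with 6 positive and 2 negative values. Col1a2 and Col3a1 were higher, and Gsn was lower, in every CKO library than in every Ctrl library. Of all tested genes 1.54% were higher and 1.26% lower past the threshold. Groups did not overlap in 3.03% that were higher and 2.7% that were lower. The part of these cell types in the results below was not tested. For Ryr2 and Casq1 the fit without both Ctrl 3 and CKO 4 is given beside the main fit.

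Ryr2, the release channel, had values in CKO that lay around 0.541 of those in Ctrl. Ryr2 (ENSMUSG00000021313) lies on chromosome 13 from 11553102 to 12106945 on the minus strand of GRCm38. It stood at 4910, 5440, 2450 and 4720 CPM in Ctrl 1 to 4, where CPM is the count relative to the TMM-scaled library total. In CKO the lowest library had 1190, the median was 2480 and the highest was 3190 CPM. Ctrl 3 alone made the groups overlap: the other 3 Ctrl libraries were above every CKO library, and 3 CKO libraries were below Ctrl 3. The log2 fold change was -0.89 (SE 0.28, 95% interval -1.53 to -0.24), which missed the threshold of 0.05 in edgeR's quasi-likelihood test (adjusted p = 0.134, unadjusted p = 0.00852). It passed with DESeq2 on the same counts (-0.87, adjusted p = 0.0348), a fit that also called more genes over all. It passed too in the edgeR fit without Ctrl 3, the library that made the groups overlap (-1.07, adjusted p = 0.0489). In the other edgeR fits with 1 library left out its adjusted p was 0.129 to 0.319. Without both Ctrl 3 and CKO 4 the edgeR value was -1.02 with an adjusted p of 0.0857. It was weakest without CKO 5 (-0.75, edgeR adjusted p = 0.15) and without Ctrl 2 (-0.76, edgeR adjusted p = 0.319).

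In each group the library with the lowest summed cardiomyocyte markers, Ctrl 3 or CKO 5, also had the least Ryr2. Ttn was the largest part of that sum, at 42000 of 69600 CPM in Ctrl 3 and 37600 of 76000 CPM in CKO 5. Ttn, Myh6, Mybpc3, Nexn and Myom1 were each lowest of their group in Ctrl 3 and CKO 5. Tnni3 (2770 and 2940 CPM) and Tnnc1 (962 and 2070 CPM) were highest of their groups there. The other markers were neither lowest nor highest in both libraries. Per 1000 CPM of the 12 summed markers, Ryr2 came to 46.3, 49, 35.2 and 44.5 CPM in Ctrl 1 to 4 and to 15.7 (lowest), 20.9 (median) and 27.3 CPM (highest) in CKO. On this ratio no CKO library reached the lowest Ctrl library. Of the 12 markers 4 were themselves higher in CKO (Tnnt2, Tnnc1, Mybpc3 and Myom1), and over the 8 that did not pass the threshold the ratio was 38.7 to 52.2 in Ctrl and 18.3 to 30.3 in CKO. These 8 were picked by the threshold in the same data and are not free of change. Tcap had a log2 fold change of 0.75 without overlap of the groups (edgeR adjusted p = 0.0554) and Actc1 of 0.55 (adjusted p = 0.142). The others lay between 0 (Ttn) and 0.35 (Actn2). An edgeR fit with the marker sum as a covariate, added after these values were seen, gave Ryr2 a log2 fold change of -1.14 (SE 0.12, adjusted p = 0.00054). With Ttn so large a part of the sum, and Tnni3 and Tnnc1 running the other way, this covariate is no full measure of heart muscle content. In bulk tissue fewer cells of a type and less RNA per cell cannot be told apart, and the part of the marker level in the Ryr2 result was not tested beyond these values. The scatter of both genes against the marker sum shows the points.

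**Figure D1:**
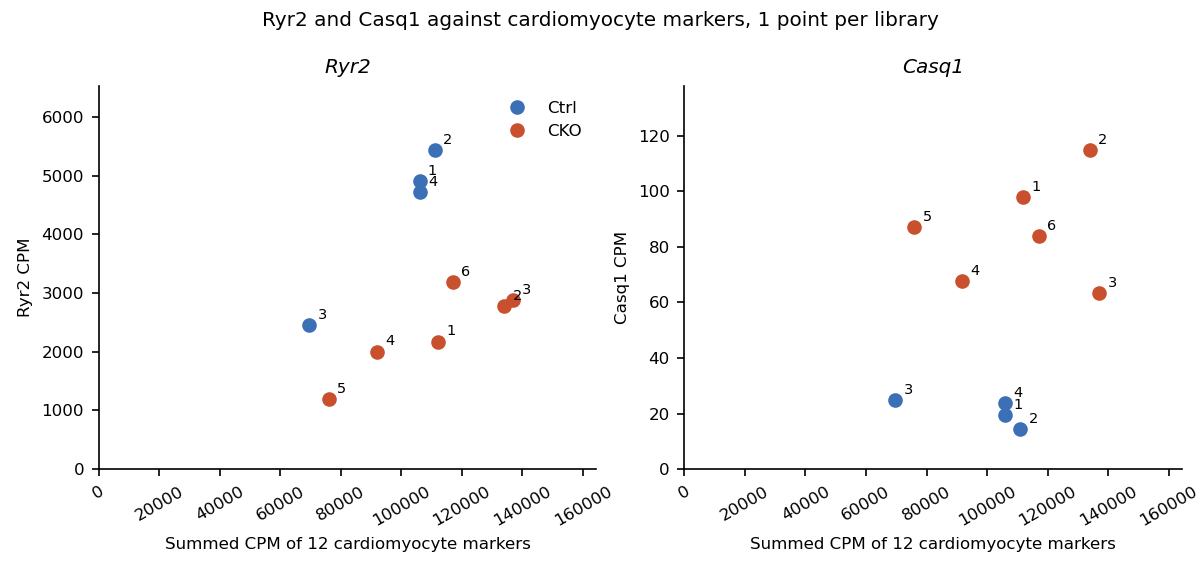
CPM of Ryr2 (left) and Casq1 (right) against the summed CPM of 12 cardiomyocyte markers, with 1 point per library, numbered by replicate, for Ctrl (blue) and CKO (orange). At a like marker sum the CKO points lie below the Ctrl points for Ryr2 and above them for Casq1; Ctrl 3, at 2450 CPM of Ryr2, has the lowest marker sum of all libraries (69600).

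The lower Ryr2 coverage in CKO ran along the whole transcript. The leading transcript, ENSMUST00000021750, has 105 exons, and all 105 had a lower mean coverage in CKO than in Ctrl, after scaling for depth. The ratio of CKO to Ctrl was 0.407 at the lowest exon (exon 16), 0.542 at the median exon and 0.791 at the highest (exon 1). In 4 exons every CKO library was below every Ctrl library. Mean coverage of the first 35 exons over that of the last 35 was 1.06 ± 0.0453 in Ctrl (SD, n = 4) and 1.11 ± 0.0831 in CKO (SD, n = 6). The difference of the group means did not pass 0.05 (exact two-sided permutation test over 210 relabellings, p = 0.324). Over the outer exons alone, the first 10 against the last 10, the ratio was 1.11 ± 0.0859 in Ctrl and 1.23 ± 0.0787 in CKO (exact permutation test, p = 0.0571). The labels name both ribosomal RNA depletion and polyA RNA, so these ratios cannot show RNA quality and describe coverage only. Transcripts annotated as retaining an intron, 9 of the 14 Ryr2 transcripts, held 31.4% ± 5.11 of the gene's TPM in Ctrl and 34.7% ± 4.44 in CKO, a share that was not tested.

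**Figure D2:**
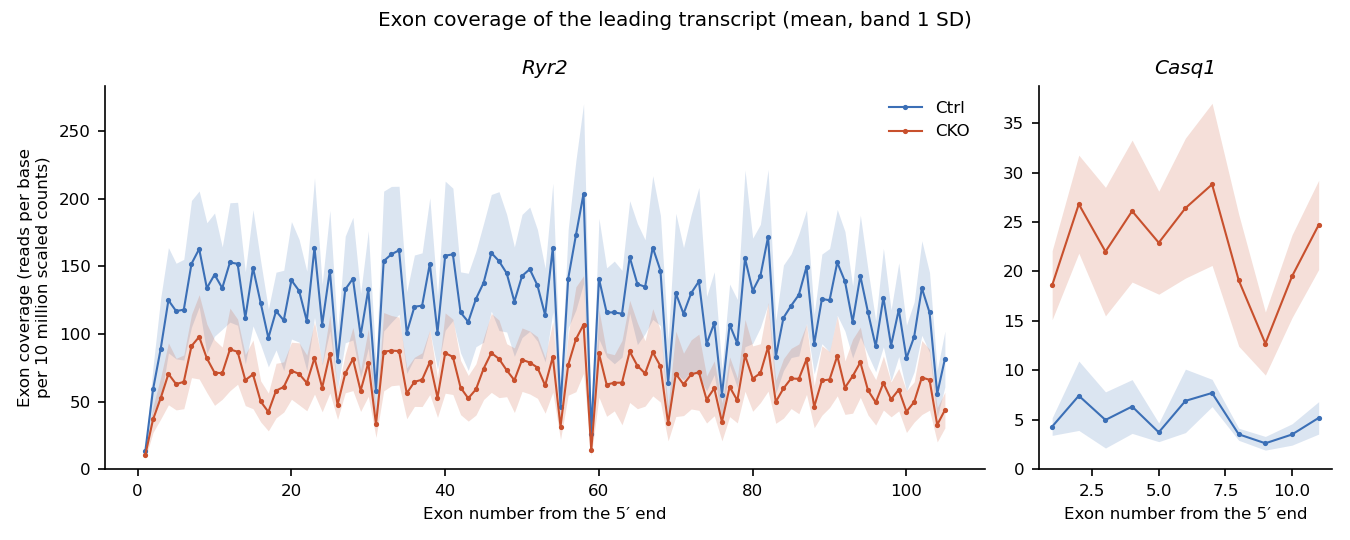
Exon coverage of the leading Ryr2 (105 exons) and Casq1 (11 exons) transcripts from the 5′ end, in reads per base after scaling for depth; lines are means over 4 Ctrl (blue) and 6 CKO (orange) libraries and bands are 1 SD. The CKO line lies below the Ctrl line at every Ryr2 exon and above it at every Casq1 exon.

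Calsequestrin, the calcium store of the reticulum, has a heart form, Casq2, and a form known from fast skeletal muscle, Casq1. Casq1 was the 1 member past the threshold: it rose 4.16-fold in CKO. Casq1 (ENSMUSG00000007122) lies on chromosome 1 from 172209894 to 172219868 on the minus strand. It stood at 19.4, 14.4, 24.9 and 23.7 CPM in Ctrl 1 to 4, and at 63.4 (lowest), 85.5 (median) and 115 CPM (highest) in CKO. All 6 CKO libraries were above all 4 Ctrl libraries, with a wide gap between them. The log2 fold change was 2.06 (SE 0.21, 95% interval 1.58 to 2.54; edgeR adjusted p = 0.000554), and all 11 exons of its leading transcript had every CKO library above every Ctrl library, by 3.61 to 6.16 times in the means. Without both Ctrl 3 and CKO 4 the log2 fold change was 2.24 (adjusted p = 0.00245). Casq1 overlaps Gm17224 on the other strand, whose mean count was 23.1 beside 551.1 for Casq1.

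Casq2 (ENSMUSG00000027861, chromosome 3, 102086415 to 102146514, plus strand) stood at 626, 559, 492 and 891 CPM in Ctrl 1 to 4. In CKO the lowest library had 641, the median was 876 and the highest was 1570 CPM. The groups overlapped through Ctrl 4, and 3 CKO libraries exceeded it. The log2 fold change of 0.58 (SE 0.25) missed the threshold (edgeR adjusted p = 0.265), and its 95% interval was 0.01 to 1.15. Without CKO 2, the highest library, it was 0.38 (adjusted p = 0.375). Per length Casq2 remained the main calsequestrin: Casq1 made up 4.58% ± 1.37 of the summed calsequestrin TPM in Ctrl (SD, n = 4) and 11.4% ± 1.55 in CKO (SD, n = 6), a ratio chosen after the values were seen. The highest Ctrl library had 6.54% and the lowest CKO library 9.12%. The ratio of Ryr2 to Casq2 TPM, chosen in the same way, was 1.35 to 2.36 in Ctrl and 0.381 to 0.942 in CKO. That ratio sums all transcripts of each gene; the leading transcripts alone gave 489.8 ± 165 TPM for Ryr2 and 523 ± 187 for Casq2 in Ctrl (SD, n = 4), with overlapping ranges, and 241 ± 85.4 and 698 ± 248 in CKO (SD, n = 6).

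Because Casq1 is a skeletal muscle gene, the skeletal muscle markers are given beside it. Of 18 listed, 7 had enough counts to be tested, with 1.54% of all tested genes higher in CKO and 1.26% lower: Myh8, Ckm and Acta1 were higher in CKO, Neb was lower, and Tnnt3, Tnni2 and Cacna1s did not pass. Heart muscle also expresses Ckm and Acta1. The fast skeletal myosins Myh1, Myh2 and Myh4, the fast troponin Tnnc2, the myogenic factors Myod1 and Myog, and Mybpc1 had 0 counts in every library; Myh4, Myod1, Myog and Mybpc1 were matched by gene ID. The summed level of the list was 650 to 940 CPM in Ctrl and 1070 to 1590 CPM in CKO, most of it Ckm.

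The starts of the Ryr2, Casq2 and Casq1 genes are shown because these are the channel and its calcium store, whose values lay furthest apart between the groups. RefSeq promoters on GRCm38.p6 were on hand for 6 members, and the 250 bases before the start were searched on both strands for the T-box core AGGTGT, the longer T-box site GGTGTGA and the shorter core AGGTG. The 6-base core stood in 11.8% of all 32851 promoter windows and the longer site in 3.33%, and neither stood in any window of Ryr2, Casq2, Casq1, Hrc, Jph2 or Fkbp1b. The shorter AGGTG stood in 46% of all windows, and among members in those of Ryr2, Casq1 and Fkbp1b. In capitals below are AGGTG in Ryr2, 101 bases before the start, and in Casq1, 159 and 66 bases before it, counted to the first base of the match. Capitals in Casq2 mark a match to the site of the muscle factor MEF2, here TATTTTTAG, 68 bases before the start; it stood in 0.469% of all windows. These matches are descriptions of the letters and no evidence of binding.
Ryr2 (chr13:12106946-12107195, minus strand): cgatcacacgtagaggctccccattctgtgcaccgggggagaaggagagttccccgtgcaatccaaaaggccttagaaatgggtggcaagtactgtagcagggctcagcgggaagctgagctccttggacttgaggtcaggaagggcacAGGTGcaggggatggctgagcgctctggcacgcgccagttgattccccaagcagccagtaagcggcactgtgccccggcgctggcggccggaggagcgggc
Casq2 (chr3:102086165-102086414, plus strand): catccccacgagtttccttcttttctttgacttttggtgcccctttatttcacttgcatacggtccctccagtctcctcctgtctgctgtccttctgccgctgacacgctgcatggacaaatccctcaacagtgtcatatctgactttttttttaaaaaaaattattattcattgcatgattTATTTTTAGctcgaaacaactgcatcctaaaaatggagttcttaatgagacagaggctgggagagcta
Casq1 (chr1:172219896-172220145, minus strand): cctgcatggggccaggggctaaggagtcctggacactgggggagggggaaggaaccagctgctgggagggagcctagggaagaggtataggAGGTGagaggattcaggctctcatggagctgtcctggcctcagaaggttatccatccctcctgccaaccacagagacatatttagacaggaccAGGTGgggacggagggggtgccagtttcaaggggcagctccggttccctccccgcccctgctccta

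Hrc, the histidine-rich calcium-binding protein, is a further calcium buffer of the reticulum that binds triadin. Hrc (ENSMUSG00000038239, chromosome 7, 45335290 to 45338974, plus strand) stood at 479, 553, 360 and 391 CPM in Ctrl 1 to 4 and at 317 (lowest), 365 (median) and 393 CPM (highest) in CKO. The CKO libraries lay at and below the lower end of the Ctrl range. The log2 fold change was -0.31 (SE 0.13, 95% interval -0.61 to -0.01) and missed the threshold (edgeR adjusted p = 0.255). Without Ctrl 2, the highest library, it was -0.18 (adjusted p = 0.549). With the cardiomyocyte marker sum as a covariate it was -0.39 with an adjusted p of 0.0256. All 6 exons of its leading transcript had a lower mean in CKO, between 0.792 and 0.864 of Ctrl.

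Triadin and junctin tether calsequestrin to the receptor. Trdn (ENSMUSG00000019787, chromosome 10, 33080554 to 33476709, plus strand) stood at 357, 388, 369 and 365 CPM in Ctrl 1 to 4 and at 304 (lowest), 361 (median) and 407 CPM (highest) in CKO. The Ctrl values lay inside the CKO range, and the log2 fold change was -0.02 (SE 0.10, 95% interval -0.24 to 0.21). Trdn overlaps 8 other genes, 4 of them on the other strand; the most abundant, D830005E20Rik, had a mean count of 690.5 beside 3374.6 for Trdn. Asph (ENSMUSG00000028207, chromosome 4, 9448069 to 9669344, minus strand) encodes junctin and, from other exons, aspartyl beta-hydroxylase, which the gene's count does not separate. It stood at 393, 397, 412 and 401 CPM in Ctrl 1 to 4 and at 371 to 499 CPM in CKO with a median of 456. In CKO 4 libraries exceeded every Ctrl library and 2 were below all of them, and the log2 fold change of 0.13 (SE 0.10) did not pass.

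Junctophilins set the narrow gap between the cell membrane and the reticulum, with Jph2 as the main form of the heart and Jph1 known chiefly from skeletal muscle. Jph2 (ENSMUSG00000017817, chromosome 2, 163336242 to 163397993, minus strand) stood at 104, 158, 80.5 and 100 CPM in Ctrl 1 to 4 and at 96.4 (lowest), 106 (median) and 175 CPM (highest) in CKO. Its log2 fold change was 0.17 (SE 0.24, 95% interval -0.37 to 0.72), and with 1 library left out it was between 0.05 (without CKO 3) and 0.40 (without Ctrl 2). Jph1 (ENSMUSG00000042686, chromosome 1, 16964560 to 17097889, minus strand) was lower, at 9.55 to 20.2 CPM in Ctrl and 11.2 to 24.1 CPM in CKO, with a log2 fold change of 0.08 (SE 0.26). The ranges of both groups overlapped for both genes.

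Fkbp1b encodes calstabin-2 (FKBP12.6), a small protein bound to the closed receptor, and Itpr1 encodes an inositol trisphosphate receptor, a second kind of calcium release channel. Fkbp1b (ENSMUSG00000020635, chromosome 12, 4833174 to 4841591, minus strand) was close to the limit of detection at 1.27, 1.64, 0.888 and 4.43 CPM in Ctrl 1 to 4 and 0.904 to 3.23 CPM in CKO. Its log2 fold change of -0.03 carried an SE of 0.49, and the 95% interval of -1.16 to 1.10 included changes of more than 2-fold in either direction. Without Ctrl 4 the value was 0.66 (adjusted p = 0.599). Itpr1 (ENSMUSG00000030102, chromosome 6, 108213096 to 108551109, plus strand) stood at 241, 221, 250 and 228 CPM in Ctrl 1 to 4 and 217 to 251 CPM in CKO. Its log2 fold change was -0.02 (SE 0.08), with a 95% interval of -0.20 to 0.16.

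**Figure D3:**
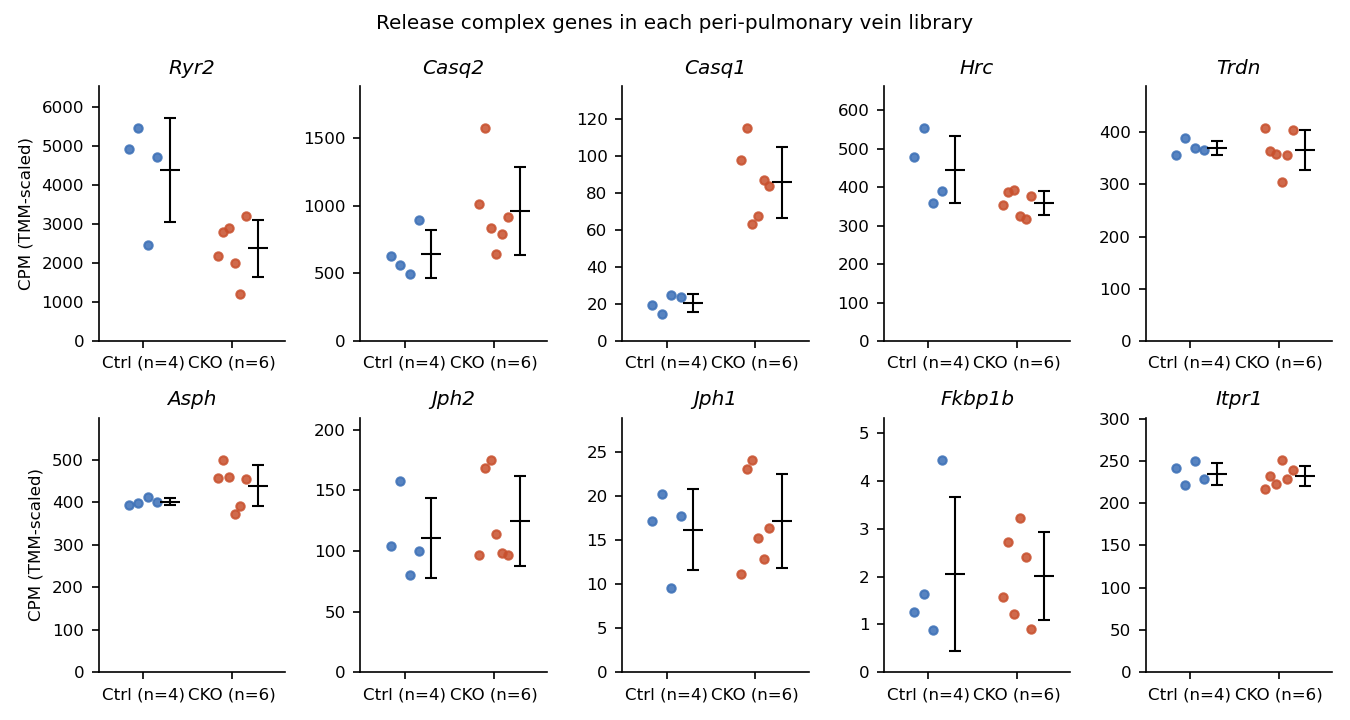
CPM of the 10 release complex genes in each library, with 4 Ctrl (blue) and 6 CKO (orange) points per panel, the mean and 1 SD in black, and a linear axis from 0 of its own in each panel. Casq1 is the panel in which the groups do not overlap; in the Ryr2 panel the lowest Ctrl point, Ctrl 3 at 2450 CPM, lies within the CKO range.

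Counted over the complex, 1 of 10 members was higher and 0 were lower at an edgeR adjusted p under 0.05, beside 1.54% higher and 1.26% lower of all tested genes. Of the other 9 members, Ryr2, Casq2 and Hrc had an unadjusted p under 0.05, DESeq2 called Ryr2 lower, and no alternative without the marker covariate called Hrc or Casq2. The median log2 fold change of the 10 was 0.03, and that of all tested genes -0.026. Groups without overlap were found in 1 member, higher, and in 0 lower, beside 3.03% and 2.7% of all tested genes. The plot of CPM by library shows these values.

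Levels between genes were compared as TPM, which divides by transcript length. In Ctrl the order by mean was Ryr2 (920.4 ± 300.2 TPM, SD, n = 4), Casq2 (536 ± 183), Hrc (384 ± 83.5), Trdn (369 ± 90.9), Asph (249 ± 20.1), Itpr1 (163 ± 8.16), Jph2 (54.4 ± 17.3), Casq1 (25 ± 8.03), Jph1 (7.01 ± 2.32) and Fkbp1b (4.44 ± 3.78). These levels sum all transcripts of a gene, for Ryr2 also its retained-intron forms; by the leading transcript alone the mean of Casq2 was above that of Ryr2 in both groups. Neighbours whose library ranges did not overlap were Asph above Itpr1, Itpr1 above Jph2 and Casq1 above Jph1; all other neighbours overlapped. In CKO Casq2 came first at 716 ± 243 TPM (SD, n = 6) and Ryr2 second at 469 ± 172, and these ranges overlapped. Casq1, at 90.2 ± 24.4 TPM, passed from rank 8 to rank 7, where its range overlapped those of both Itpr1 and Jph2. Jph2 followed at rank 8, and Jph1 and Fkbp1b were last in both groups. The plot of levels per length shows the order.

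**Figure D4:**
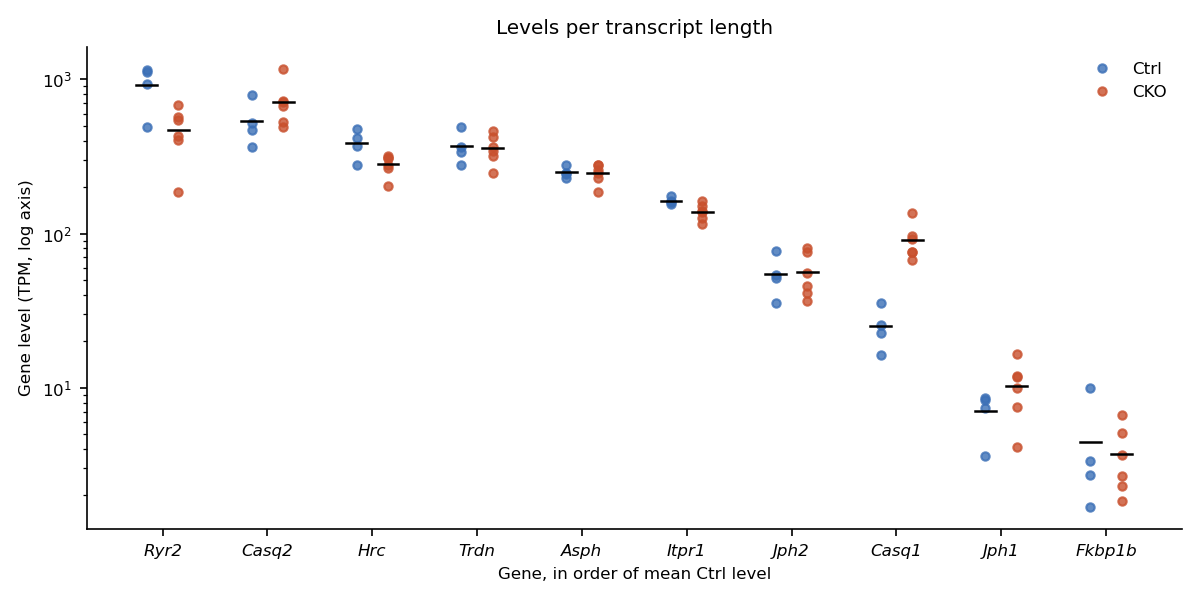
Gene levels in TPM on a log axis for the 10 genes in order of their mean in Ctrl, with 1 point per library (Ctrl blue, CKO orange) and the group mean as a black bar. The order runs from Ryr2 (920.4 TPM in Ctrl) to Fkbp1b (4.44 TPM); Casq1 is the gene whose CKO points all lie above its Ctrl points.

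Transcript use within the members was tested for 14 transcripts of 4 genes (Trdn, Jph1, Asph and Itpr1), those with a mean share of at least 10% of the gene's TPM beside another such transcript. None passed after adjustment in the exact two-sided permutation test (0 of 14; 2 had an unadjusted p under 0.05; lowest adjusted p = 0.333). Trdn RNA was divided among the retained-intron form Trdn-204 (33.5% ± 9.01 in Ctrl and 27.2% ± 9.2 in CKO), the short form Trdn-207 (29.4% ± 22.5 and 43.5% ± 24.6) and the long forms Trdn-201 and Trdn-208, each at 10.4% to 14.9% in the group means. The full-length Itpr1-201 held 19.7% ± 4.71 in Ctrl and 22.5% ± 4.45 in CKO by TPM and 65.5% and 70.5% by read coverage times length. Jph1-202, annotated as a target of nonsense-mediated decay, was listed at 0 in all 4 Ctrl libraries and held 0% to 52% of Jph1 TPM in CKO (exact permutation p = 0.0476, adjusted p = 0.333); the smallest p this design can give is 0.00952.

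The appendage of the left atrium, away from the veins, is described from the authors' deposited table, which covers 9 members and not Fkbp1b. In the authors' deposited table the appendage comparison of CKO with Ctrl gave Ryr2 a log2 fold change of -2.08 (false discovery rate, FDR, 7.69e-40), a level 0.236 of Ctrl. The same comparison in the authors' deposited table gave Trdn -1.27 (FDR 3.31e-08), Hrc -0.91 (FDR 4.19e-05), Casq2 0.68 (FDR 0.00788) and Casq1 3.21 (FDR 9.52e-22). Jph1, Jph2, Asph and Itpr1 lay between -0.30 and -0.09 there in the authors' deposited table and did not pass. That is 2 members higher and 3 lower of 9, against 16.8% higher and 17.9% lower of all 13646 genes of the authors' deposited table.

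For the pulmonary vein region the authors' deposited table gave Ryr2 -0.90 (FDR 0.174), Trdn -0.03 (FDR 0.972), Hrc -0.33 (FDR 0.511), Casq2 0.56 (FDR 0.386) and Casq1 2.04 (FDR 1.09e-17). There 1 member was higher and 0 were lower, against 3.03% and 2.47% of all genes in the authors' deposited table. Whether the response of any member differs between the regions was not tested, since the appendage libraries come from an earlier study and were not used here. In the authors' deposited table the direct comparison of the pulmonary vein region with the appendage, positive where the vein region was higher, gave Casq1 2.48 (FDR 8.62e-12), a level 5.56 times as high, and Jph2 -0.77 (FDR 0.0058). The other 7 members lay between -0.42 and 0.12 in that comparison of the authors' deposited table and did not pass, Ryr2 at -0.18 (FDR 0.774) among them. That is 1 higher and 1 lower of 9, against 8.19% and 4.06% of all genes there. Which libraries entered each comparison is not stated. Comparisons that involve the same region may share control libraries, so their values are only set side by side. Where the appendage libraries are those of the earlier study, region and study cannot be told apart in the direct comparison.

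**Figure D5:**
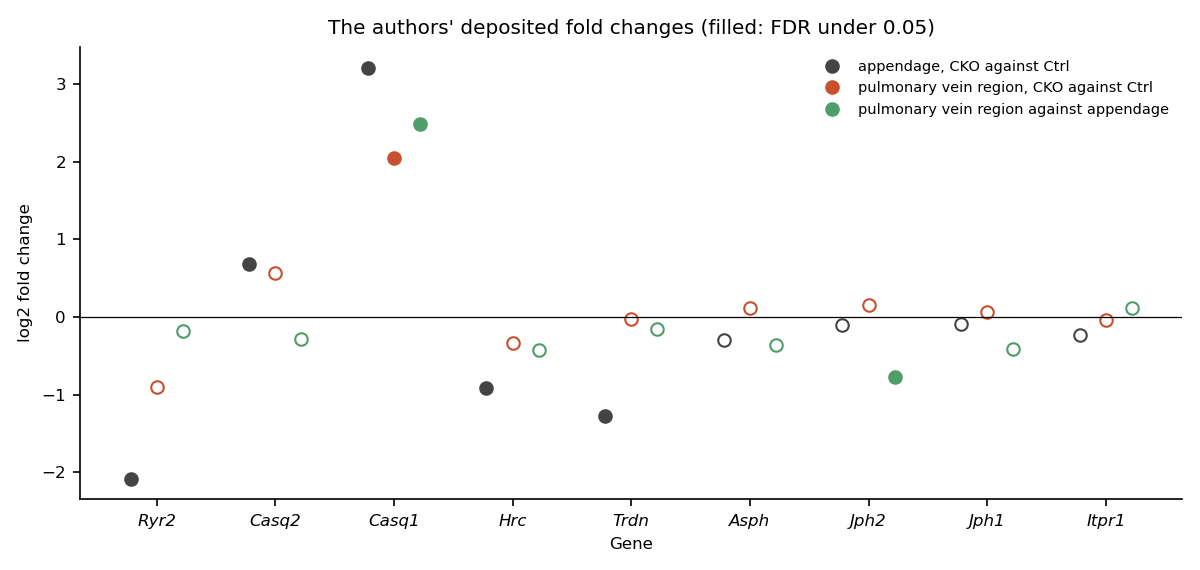
The authors' deposited log2 fold changes for 9 members in 3 comparisons: appendage CKO against Ctrl (grey), pulmonary vein region CKO against Ctrl (orange) and pulmonary vein region against appendage (green), filled where the FDR is under 0.05. Ryr2 lies at -2.08 in the appendage and at -0.90 in the pulmonary vein region; Trdn lies at -1.27 and -0.03.

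The partner genes of the complex were 61 genes in 5 lists, of which 60 were matched to a row and 56 were tested. Of the 56, 2 (3.57%) were higher and 2 (3.57%) were lower, beside 1.54% and 1.26% of all tested genes, with a median log2 fold change of 0.08 beside -0.026 for all genes. Of 18 regulators of the release channel, all tested, 1 rose and 0 fell. It was Tecrl, an endoplasmic reticulum protein whose human mutations give a catecholaminergic arrhythmia: Ctrl ranged from 72.1 to 137 CPM and CKO from 146 to 195 CPM. Its log2 fold change was 0.80 (SE 0.17, edgeR adjusted p = 0.0314), and the list had no gene past the threshold when any 1 of Ctrl 1, 3 or 4 or CKO 1, 2, 5 or 6 was left out. Of 15 genes of dyad structure 12 were tested, of which 1 rose and 0 fell. It was Cav3, the muscle caveolin of the surface membrane: Ctrl ranged from 28.2 to 43.2 CPM and CKO from 53 to 90 CPM (log2 fold change 0.82, SE 0.17, edgeR adjusted p = 0.0268). That list lost its call when any Ctrl library, CKO 1 or CKO 2 was left out. In the authors' deposited table Cav3 was at 0.80 (FDR 0.000858) in the vein region and 0.88 (FDR 9.10e-08) in the appendage. Tecrl was at 0.78 (FDR 0.00353) and 0.92 (FDR 1.32e-05) in the same 2 comparisons. The libraries entered there are not stated, so these values are only set beside the fit.

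Of 14 genes that bring calcium in or clear it, 13 were matched and tested, 0 rose and 2 fell. Of all tested genes 1.54% rose and 1.26% fell. Cacna2d2, an accessory subunit of voltage-gated calcium channels, ranged from 29.5 to 55.7 CPM in Ctrl and from 4.47 to 19.9 CPM in CKO (log2 fold change -1.96, SE 0.34, edgeR adjusted p = 0.0129). Sln, which encodes sarcolipin, the atrial inhibitor of the calcium pump, ranged from 940 to 1900 CPM in Ctrl and from 574 to 766 CPM in CKO (log2 fold change -0.96, SE 0.18, edgeR adjusted p = 0.0171). Neither gene's groups overlapped, which held, in the lower direction, for 2.7% of all tested genes. In the authors' deposited table Cacna2d2 was at -1.13 and Sln at -1.22 in the appendage, and Cacna2d2 was 5.3 times as high in the vein region as in the appendage. Of 4 other release channels 3 were tested and 0 passed in either direction: Ryr3 went from 135 ± 51.2 CPM in Ctrl (SD, n = 4) to 116 ± 62.2 CPM in CKO (SD, n = 6) and Itpr2 from 117 ± 7.1 to 123 ± 8. In the authors' deposited table Ryr3 was 6.13 times as high in the vein region as in the appendage. For Ryr3 and Cacna2d2 alike, region and study may not be told apart in that direct comparison. Of 10 general calcium-binding proteins of the reticulum 0 passed in either direction, with Hspa5 at 645 ± 142 and 715 ± 122 CPM and Calu at 560 ± 34.4 and 596 ± 135 CPM.

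The genes whose level followed that of Ryr2 most closely over the 10 libraries, by Pearson correlation of log2 CPM among 10418 genes with a mean of at least 10 CPM, were Gm43361 (r = 0.993), Gm43359 (0.983), Gm43360 (0.979), Slco5a1 (0.973) and Prkaa2 (0.973). The first 3 are annotated inside Atp2a2, the gene of the calcium pump SERCA2 that refills the reticulum, on chromosome 5 between 122453513 and 122502225. Gm43361 lies on the strand opposite to Atp2a2, and reads of a gene and its antisense partner cannot be told apart where the kit does not mark strand. Atp2a2 itself, named after its values were seen, had an r of 0.955 and went from 9540 ± 2800 CPM in Ctrl (SD, n = 4) to 6240 ± 1660 in CKO (SD, n = 6), which missed the threshold (log2 fold change -0.61, edgeR adjusted p = 0.238). Among the members Hrc followed Ryr2 most closely (r = 0.871) and Casq1 ran opposite to it (r = -0.716), and the others lay between -0.148 and 0.492. These correlations are descriptions over libraries that share genotype groups and cell make-up. Prkaa2, a catalytic subunit of the energy sensor AMPK, and Slco5a1 had log2 fold changes of -0.44 and -0.63 and did not pass.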

How the data were processed

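RNA was sequenced from 10 libraries of separate mice, 4 Ctrl and 6 CKO, grouped by the genotype in the labels. Xist RNA divided both groups. It was 1000 to 1370 CPM in Ctrl 1, Ctrl 2 and CKO 1 to 3, and 1.44 to 6.44 CPM in Ctrl 3, Ctrl 4 and CKO 4 to 6. With Xist as a covariate the edgeR log2 fold change was -0.88 for Ryr2 and 2.07 for Casq1. Per the labels' protocols ribosomal RNA was depleted and libraries were made with a TruSeq v2 kit, while the molecule is labelled polyA RNA. The submitters' processing notes name TopHat2 2.1.1, StringTie 1.3.3, edgeR 3.18.1 and limma 3.32.10. Per the file headers StringTie ran with a stranded setting on reference transcripts of GRCm38; the kit does not mark strand, so overlapping genes are uncertain. The deposited gene table holds estimated counts, made from coverage and not raw reads. Coverage per transcript and exon, and TPM, came from the deposited transcript files. The authors' deposited table gives log2 fold changes, p-values and FDR for 13646 genes. The gene table's 10 appendage columns belong to another series and were not used.

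Counts, whole numbers as deposited, were tested with edgeR 4.0.16 after filterByExpr (17752 genes kept of 33196 above 0) and TMM scaling (quasi-likelihood test, genotype as the only term, Benjamini-Hochberg over all tested genes, threshold 0.05) in R 4.3.3; each SE was derived from the F statistic. Transcript shares and the coverage ratio of Ryr2 were tested by exact permutation with scipy 1.17.1. The tests were checked on simulated data. Alternatives were DESeq2 1.42.0, limma 3.58.1, other scalings and filters, covariates and each library left out. The members and lists were chosen with earlier results of these data known. Named were all members, Tbx5, of each partner list up to 4 genes past the threshold or else the 2 highest in mean CPM, and the 5 genes most like Ryr2 in level. Library totals were 8602794 to 10040808 counts.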

Additional observations from a re-analysis of the deposited data

How the results depend on the processing

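Across 21 alternative settings Casq1 stayed higher (1.83 to 2.24 on the log2 scale; 1.93 to 2.17 with 1 library left out) and passed the threshold in 20. Ryr2 stayed lower (-1.14 to -0.75) and passed in 3. With 1 library left out Casq2 was at 0.38 to 0.78, Hrc at -0.39 to -0.18 and Jph2 at 0.05 to 0.40, and none passed. Numbers shared by Ctrl and CKO libraries gave no sign of pairing (correlations 0.0313, 0.0876, -0.319 and 0.0894). With the replicate block Casq1 was at 2.04 (adjusted p = 0.0859), 0 members were higher, and 0 partner genes were higher and 0 lower; the cause was not tested, and the block also gave fewer calls over all genes (11 higher, 26 lower). Members lower in CKO numbered 1 with DESeq2, 0 to 1 with 1 library left out, and 2 with the cardiomyocyte marker sum as a covariate, chosen after seeing the data. With that covariate 5 partner genes were higher and 9 lower. Over all tested genes the calls ran from 11 to 1118 higher and from 26 to 923 lower across the settings. The main fit gave 274 and 223, so these counts are not read as a trait of the complex. Partner genes higher numbered 1 without a filter on low counts, 0 without both Ctrl 3 and CKO 4, and 0 to 2 with 1 library left out. No transcript share passed in any setting. The coverage ratio of Ryr2 along the transcript differed between CKO and Ctrl by 0.0488, 0.124 over the outer 10 exons, and 0.0269 to 0.0682 with 1 library left out, and never passed. DESeq2 called 692 genes higher and 440 lower in all.

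Members near 0 changed sign: Trdn (no filter 0.03, without both Ctrl 3 and CKO 4 0.05, leave-outs -0.05 to 0.03), Jph1 (without both -0.05, marker covariate -0.10, leave-outs -0.09 to 0.21), Asph (-0.03 on log2(TPM + 1) and on log2(TPM + 0.1)), Fkbp1b (limma-voom 0.12, no filter 0.03, Xist covariate 0.02, replicate block 0.22, leave-outs -0.26 to 0.66) and Itpr1 (no filter 0.02, without both 0.00, marker covariate 0.00, leave-outs -0.04 to 0.02). None passed in any setting. Depth limits Fkbp1b most, at 0.888 to 4.43 CPM.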
